A study of Homo sapiens with 6 samples.

Results

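The genes described here are 7 members and neighbours of the urokinase plasminogen activator system, taken by name from the 24462 gene symbols in the count files. They are the urokinase gene PLAU, its receptor PLAUR, the tissue plasminogen activator PLAT, the serpins SERPINE2 and SERPINB2, the aminopeptidase ANPEP and the matriptase gene ST14. All 7 are listed in every library, and 5 of them passed the filter on low counts, as did 15386 genes in all. The 5 had at least 27 counts in each of the 6 libraries, so none passed through 1 group alone. SERPINB2 and ST14 did not pass and are described by their counts.

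By the labels, the RNA came from MDA-MB-231, a line of triple-negative breast cancer. The study asks how the ETS-family transcription factor ELK3 bears on the killing of these cells by natural killer cells. There were 3 groups of 2 libraries. Control cells had been infected with retrovirus made from a control plasmid, and no transfection with the later plasmids is recorded for them. The other groups are ELK3 knockdown cells (ELK3KD-231), transfected with 1 µg of the vector pLenti-cMyc-DDK (the vector-labelled libraries) or of pLenti-cMyc-DDK-ELK3, which carries ELK3 (the ELK3-labelled libraries), and collected 48 hours later. Whether the knockdown line is 1 clone, and whether replicates were separate cultures, is not given, so p-values may measure technical spread only. Knockdown and plasmid transfection cannot be told apart in contrasts with the controls.

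ELK3 itself went against the labels. As CPM (counts scaled to the library's size), control replicates 1 and 2 read 129 and 124, the vector-labelled pair 759 and 697, and the ELK3-labelled pair 20.4 and 22.6. The libraries labelled as knockdown with vector thus held the most ELK3 and those labelled as re-expression the least. The column headings in the files also name these groups the other way round from the labels. Group names below follow the labels. If the labels are exchanged, every sign between the ELK3-labelled and vector-labelled libraries turns over, and the contrasts of these groups with the controls change places.

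As background, urokinase is a secreted serine protease that cuts plasminogen into plasmin, a broad protease that digests fibrin and matrix and activates other proteases. Its receptor, held at the membrane by a lipid anchor, gathers urokinase at the cell surface and works with integrins in adhesion and migration. Serpins block the activators by forming a covalent complex that scavenger receptors then clear. MDA-MB-231 is a commonly used model of high urokinase and urokinase receptor expression in invasive breast cancer.

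Promoter sequence is shown for PLAU, PLAUR and SERPINB2, which were much lower outside the controls, since AP-1, ETS and NF-kappaB factors are known to act on the regulatory DNA of the urokinase gene. RefSeq promoters (GRCh38.p14, 250 bases before to 50 after each start) are reported for 5 members, as 8 entries: PLAU, PLAUR, SERPINE2, SERPINB2 and ANPEP. No promoter of the other 2 members is reported here. On both strands, TGANTCA of AP-1 was searched, CCGGAA as a form of the ETS motif, and by name the NF-kappaB consensus and the serum response element. AP-1 letters were found in PLAUR, 186 to 180 bases upstream of the start, and in SERPINB2, 102 to 96 bases upstream. They are in capitals in the stretches below, which are printed 5′ to 3′ on the gene's strand at chr19:43670338-43670366 (minus) and chr18:63887592-63887620 (plus). None of the 4 motifs matched in either PLAU entry, and the 222 bases before the first annotated exon base of one of them, chr10:73910882-73911103 (plus), are shown without capitals.
PLAUR: tcacaactccaTGAGTCAgggccgagcca
SERPINB2: gagtaaaatgtTGAATCActcaaaggaca
PLAU: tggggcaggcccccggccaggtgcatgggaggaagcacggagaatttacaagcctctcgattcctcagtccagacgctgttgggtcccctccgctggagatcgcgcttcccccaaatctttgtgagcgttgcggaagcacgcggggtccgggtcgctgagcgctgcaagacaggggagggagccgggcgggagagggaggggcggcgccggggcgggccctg

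The AP-1 pattern is its own reverse complement, so a match on both strands is 1 place. It occurs in 7.71% of the 35116 promoters in the table. The NF-kappaB consensus was found in 1 member, ANPEP, 143 to 134 bases upstream in 1 of its 2 entries, and in 7.73% of all promoters. The ETS form CCGGAA, present in 17.2% of promoters, and the serum response element, present in 1.29%, were found in no entry of the 5 members. The shorter ETS core GGAA was not searched, and its letters do occur in the PLAU stretch above. A match is a description of letters in this window, not of a bound site, and the window leaves out enhancers.

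Library totals ranged from 4884483 to 9131214 counts, and a reading of 0 in 1 library allows a level of up to 3 counts (95% limit), or 0.319 to 0.645 CPM. The 19 tested genes of a list of 20 typical of MDA-MB-231 were all lower than in the controls in both other groups. Their list summed to 6488 to 6679 CPM in the controls, 1102 to 1142 in the vector-labelled and 997 to 1048 in the ELK3-labelled libraries. A list of 20 genes typical of the embryonic kidney line HEK293 ran the other way, from 242 to 247 CPM through 446 to 460 to 908 to 911. Of its 19 tested genes 15 rose in each contrast with the controls, and PAX2 was at 0 counts in the controls. Over all tested genes, 37.0% were called higher and 35.3% lower in vector-labelled libraries. The shares were 31.8% and 30.8% in ELK3-labelled libraries. CDKN2A, a gene known to be deleted in MDA-MB-231, read 13.4 and 17.6 CPM in the controls and 175 to 236 CPM in the other 4 libraries. Both lists were chosen with earlier results of these data known, and the part of these differences in the results below was not tested. In bulk RNA, fewer cells of a type and less RNA per cell cannot be told apart. A list of 12 liver genes summed to 12680 to 13080, 12740 to 13710 and 10340 to 10850 CPM in the 3 groups.

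Of the 5 tested members, urokinase and its receptor fell most against the controls. PLAU, on chromosome 10 from 73909177 to 73917497 (plus strand, GENCODE 29 on GRCh38), read 431 and 423 CPM in the controls. The vector-labelled pair read 9.11 and 7.40 CPM and the ELK3-labelled pair 7.16 and 8.82 CPM, which is 2062 and 1967 counts against 37 to 83. Every control library lay far above the other 4, and the ranges of the vector-labelled and ELK3-labelled libraries overlapped. Against the controls PLAU fell by 5.67 ± 0.13 (log2 fold change ± SE; edgeR quasi-likelihood test, adjusted p = 6.09e-28) in the vector-labelled libraries, a 50.9-fold drop by the group's scaled counts. In the ELK3-labelled libraries it fell by 5.71 ± 0.12 (adjusted p = 2.22e-28), a 52.4-fold drop. Between those groups the difference was -0.04 ± 0.19 (adjusted p = 0.872). The 95% interval of this difference, -0.44 to 0.35, spans folds of 0.74 to 1.28. ELK3 differed 33.7-fold between the same groups, and a link between PLAU and ELK3 was not tested. C10orf55 lies antisense over 7529 bases of PLAU and held 9 and 12 counts in the controls and 0 to 3 elsewhere. Whether counting used strand is not given in the sources used here.

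PLAUR encodes the urokinase receptor and lies on chromosome 19 from 43646095 to 43670547 (minus strand). Its levels were 313 and 333 CPM for the controls, 37.2 and 41.2 CPM for the vector-labelled pair and 36.4 and 36.8 CPM for the ELK3-labelled pair. Again the controls stood apart, and the other 4 libraries lay within a few CPM of each other. PLAUR fell by 3.05 ± 0.10 (edgeR adjusted p = 2.06e-23) in the vector-labelled and by 3.14 ± 0.10 (adjusted p = 4.17e-24) in the ELK3-labelled libraries, drops of 8.29-fold and 8.80-fold. The ELK3-labelled libraries did not differ from the vector-labelled beyond the spread, at -0.09 ± 0.11 (adjusted p = 0.498, 95% interval -0.32 to 0.14). For urokinase and its receptor alike, the controls were highest, and the test called no difference between the other groups. The ranges of those groups overlapped for PLAU but not for PLAUR.

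PLAT encodes tissue plasminogen activator, the activator best known for dissolving clots. The gene lies on chromosome 8 from 42175233 to 42207724 (minus strand). Control levels were 40.4 and 31.0 CPM, vector-labelled levels 5.73 and 5.40 CPM, and ELK3-labelled levels 16.2 and 16.9 CPM. The 3 groups did not overlap, with the ELK3-labelled libraries between the others. PLAT fell by 2.67 ± 0.20 against the controls in the vector-labelled libraries (edgeR adjusted p = 1.09e-13) and by 1.10 ± 0.16 in the ELK3-labelled libraries (adjusted p = 3.98e-07). From the vector-labelled to the ELK3-labelled libraries it rose by 1.57 ± 0.21 (adjusted p = 1.40e-07, 95% interval 1.13 to 2.004), a 2.97-fold difference. This interval lay wholly above that of PLAU for the same contrast. Of these 2 groups, the one with the lower ELK3 reading had the higher PLAT. Mean ELK3 was 126 CPM in the controls, 728 in the vector-labelled and 21.5 in the ELK3-labelled libraries, and PLAT was highest in the controls. A link between PLAT and ELK3 was not tested.

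**Figure D1:**
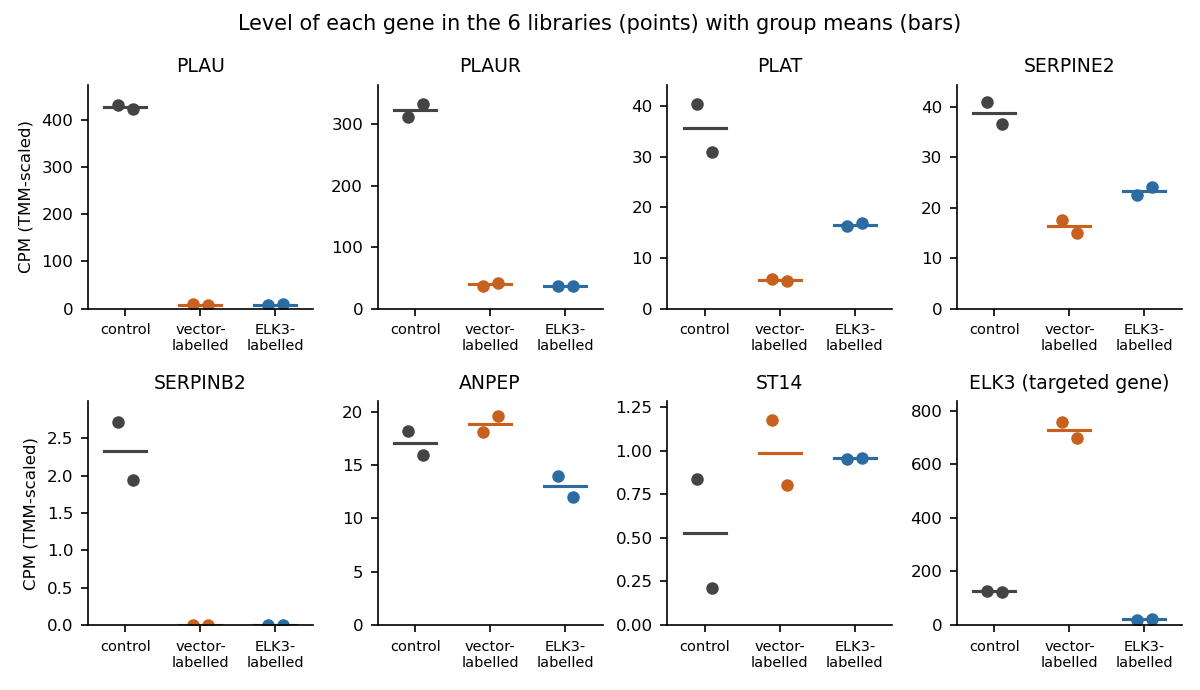
TMM-scaled CPM (linear axes from 0, a scale for each gene) of the 7 genes and ELK3 in the 6 libraries, as points, with group means as bars and groups as labelled. The controls of PLAU, PLAUR, PLAT and SERPINE2 lie above all other libraries, SERPINB2 is at 0 counts outside the controls, the groups of ST14 overlap, and ELK3 is highest in the vector-labelled libraries.

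SERPINE2 encodes protease nexin 1, an inhibitor of thrombin, urokinase and plasmin, on chromosome 2 from 223975112 to 224039319 (minus strand). Control levels were 41.0 and 36.6 CPM, beside 17.6 and 15.01 CPM with the vector label and 22.6 and 24.0 CPM with the ELK3 label. As for PLAT, the groups did not overlap and the ELK3-labelled libraries lay in the middle. SERPINE2 fell by 1.24 ± 0.16 (edgeR adjusted p = 1.58e-08) and by 0.73 ± 0.14 (adjusted p = 4.44e-05) against the controls in the vector-labelled and ELK3-labelled libraries. It rose by 0.51 ± 0.16 between them (adjusted p = 0.00627, 1.42-fold). Leaving out vector-labelled replicate 2 gave 0.42 (adjusted p = 0.0624) and leaving out ELK3-labelled replicate 2 gave 0.46 (adjusted p = 0.0530), which ended that last call.

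SERPINB2 encodes plasminogen activator inhibitor 2, which is largely kept inside the cell, on chromosome 18 from 63871692 to 63903890 (plus strand). Control libraries held 13 and 9 counts, or 2.72 and 1.94 CPM, and each of the other 4 libraries held 0. With 3 counts over a group as the floor, it was at least 9.18-fold lower in the vector-labelled and at least 12.2-fold lower in the ELK3-labelled libraries. These bounds cover only the counting error of the group at 0, with the control counts taken as observed. With the filter left out, edgeR called it lower in both contrasts with the controls (adjusted p = 1.69e-05 and 4.44e-06), and no fold is given between groups at 0. SERPINB10, which overlaps SERPINB2 on the same strand over 6717 bases, had at most 1 count in any library.

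ANPEP encodes aminopeptidase N (CD13), a membrane peptidase that trims small peptides and is found on myeloid, liver and kidney cells. The gene lies on chromosome 15 from 89784889 to 89815401 (minus strand). Control levels were 18.2 and 15.9 CPM, vector-labelled levels 18.1 and 19.6 CPM, and ELK3-labelled levels 14.0 and 12.0 CPM. Controls and vector-labelled libraries overlapped, and the ELK3-labelled libraries were the lowest. The vector-labelled libraries differed from the controls by 0.14 ± 0.18 (edgeR adjusted p = 0.511, 95% interval -0.23 to 0.51), an interval that lies above the changes of the 4 members that fell there. ANPEP fell by 0.54 ± 0.18 from the vector-labelled to the ELK3-labelled libraries (adjusted p = 0.00867, 1.46-fold). Against the controls the ELK3-labelled difference was -0.40 ± 0.19 (adjusted p = 0.0574).

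The ANPEP call between the plasmid groups was the least firm among the members. It ended with DESeq2 (adjusted p = 0.0709), without vector-labelled replicate 2 (0.0633) and without ELK3-labelled replicate 2 (0.124). In the same contrast, all 12 liver genes were called lower, by log2 differences of -0.36 to -0.24, while none was called between vector-labelled libraries and controls. Of 10 tested markers of monocytes and macrophages, myeloid cells that carry ANPEP, 0 rose and 3 fell there (median -0.41), and the list summed to 145 to 156 CPM in vector-labelled and 111 to 116 CPM in ELK3-labelled libraries. Of 11 tested markers of lymphocytes and natural killer cells, 1 rose and 5 fell (median -0.35), and the list summed to 256 to 282 and 223 to 230 CPM. Over all tested genes 30.0% were called higher and 29.6% lower in this contrast. No gene of these 3 lists was at 0 in a whole group. Their part in the ANPEP difference was not tested.

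ST14 encodes matriptase, a membrane serine protease of epithelia that can activate pro-urokinase. On chromosome 11 from 130159562 to 130210376 (plus strand), ST14 gave 4 and 1 counts for the controls, 8 and 4 for the vector-labelled pair and 6 and 9 for the ELK3-labelled pair, all at or below 1.18 CPM. The groups overlapped. The vector-labelled to control ratio was 1.92 with a 95% counting interval of 0.629 to 6.95, so no difference was detectable at this depth. Without the filter, edgeR gave adjusted p of 0.448 and 0.493 for the contrasts with the controls.

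Counted together, 0 of the 5 tested members were higher and 4 lower (PLAU, PLAUR, PLAT, SERPINE2) in vector-labelled libraries than in controls. Over all tested genes 37.0% were called higher and 35.3% lower there. The median log2 fold change of the 5 was -2.67, beside 0.05 over all genes. In ELK3-labelled libraries against controls, the same 4 were lower and 0 higher, where 31.8% of genes were called higher and 30.8% lower, with medians of -1.10 and 0.02. With library totals in place of TMM scaling, the share of higher genes among all called in that contrast moved from 50.8% to 61.1% and the median of all genes to 0.18, while the same count of 4 members stayed called. Between ELK3-labelled and vector-labelled libraries, 2 members were higher (PLAT, SERPINE2) and 1 lower (ANPEP), against 30.0% and 29.6% of all genes. The members' median was -0.04 and that of all genes -0.02. With so large a share of genes called in every contrast, a call by itself sets no member apart. The contrasts with the controls share the same control libraries.

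**Figure D2:**
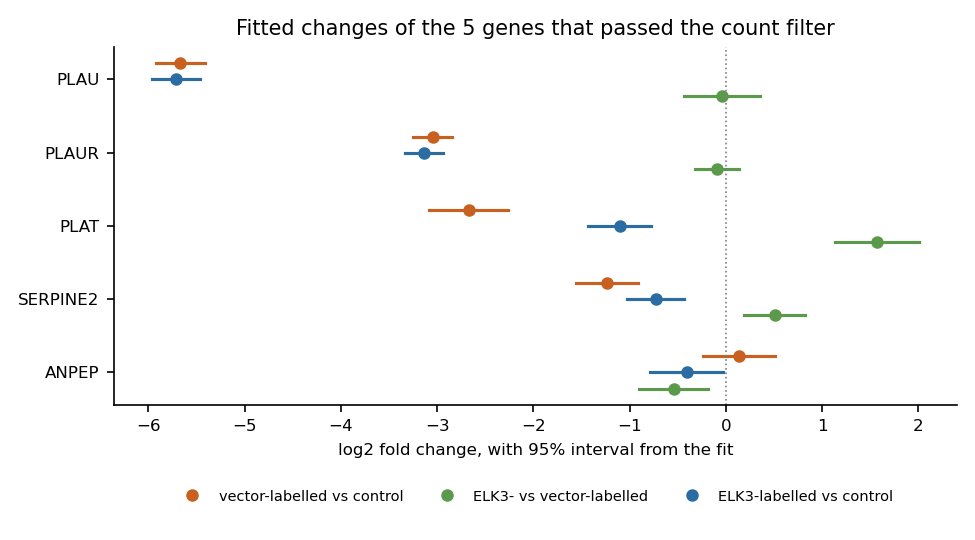
Log2 fold changes of the 5 tested members (points) in the 3 contrasts, by colour, with bars for the 95% interval from the edgeR fit and a dotted line at 0. PLAU lies at -5.67 and -5.71 and PLAUR at -3.05 and -3.14 in the contrasts with the controls, while PLAT, at -2.67 and -1.10, is the member with the highest value between ELK3-labelled and vector-labelled libraries, 1.57.

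The wider system was described by lists chosen by function, with earlier results of these data known. Counts of each list are to be read beside the shares of all tested genes. Against controls, 37.0% were called higher and 35.3% lower in vector-labelled libraries, and 31.8% and 30.8% in ELK3-labelled libraries. Between the plasmid groups the shares were 30.0% and 29.6%. Of 10 tested genes for plasminogen and other inhibitors, 1 rose and 2 fell in the vector-labelled libraries against controls, with a median log2 fold change of 0.04. THBS1, a matrix glycoprotein that binds plasmin, went from 90.9 to 5.41 CPM (-4.03 ± 0.17, edgeR adjusted p = 2.71e-20). SERPINI1, neuroserpin, rose by 1.36 ± 0.35, from 2.65 to 6.77 CPM. With library totals 4 of the 10 rose.

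From vector-labelled to ELK3-labelled libraries, 0 of these 10 rose and 7 fell, with a median of -0.33, where 29.6% of all genes were called lower. Antithrombin SERPINC1 (-0.33 ± 0.08, edgeR adjusted p = 0.00110), the broad protease inhibitor A2M (-0.40 ± 0.11) and the plasmin inhibitor SERPINF2 (-0.33 ± 0.11) are proteins made mainly by the liver. Their changes stood beside those of the 12 liver genes, whose median was -0.33, and the part of the liver genes in this was not tested. The 7 lower calls became 4 with DESeq2, 2 without vector-labelled replicate 1 and 3 without ELK3-labelled replicate 1. Against the controls, 1 rose and 7 fell in the ELK3-labelled libraries. The 1 that rose, SERPINI1, was not called with DESeq2, limma-voom, no filter, or any 1 control or ELK3-labelled library left out, and was not tested under the 10 CPM filter. The lower calls became 2 with library totals, 4 with DESeq2 and 4 without ELK3-labelled replicate 1. PLG, plasminogen itself and another liver product, read 164, 163 and 135 CPM in the 3 groups.

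Of 7 cell-surface binders of plasminogen, 1 rose and 3 fell in vector-labelled libraries against controls. The shares over all genes there were 37.0% higher and 35.3% lower. ANXA2, which docks plasminogen and tissue activator together with S100A10, went from 1442 to 322 CPM (-2.16 ± 0.09, edgeR adjusted p = 3.66e-21) and S100A10 from 480 to 300 CPM (-0.68 ± 0.08). PLGRKT, a plasminogen receptor with a terminal lysine, went from 9.23 to 3.48 CPM (-1.35 ± 0.31). KRT8, a keratin, rose by 0.30 ± 0.11, a call lost when control replicate 2 (adjusted p = 0.356) or vector-labelled replicate 2 (adjusted p = 0.0552) was left out. Under library totals, 3 of the 7 rose. Between the plasmid groups 2 rose and 1 fell. PLGRKT returned to 9.16 CPM (1.32 ± 0.29), and KRT8 went from 113 to 227 CPM (1.00 ± 0.10). The fall of ANXA2 there, -0.23 ± 0.09, was not called without the filter, without vector-labelled replicate 1 or without either ELK3-labelled library. Against controls, 1 rose and 2 fell in ELK3-labelled libraries, and 3 rose with library totals.

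**Figure D3:**
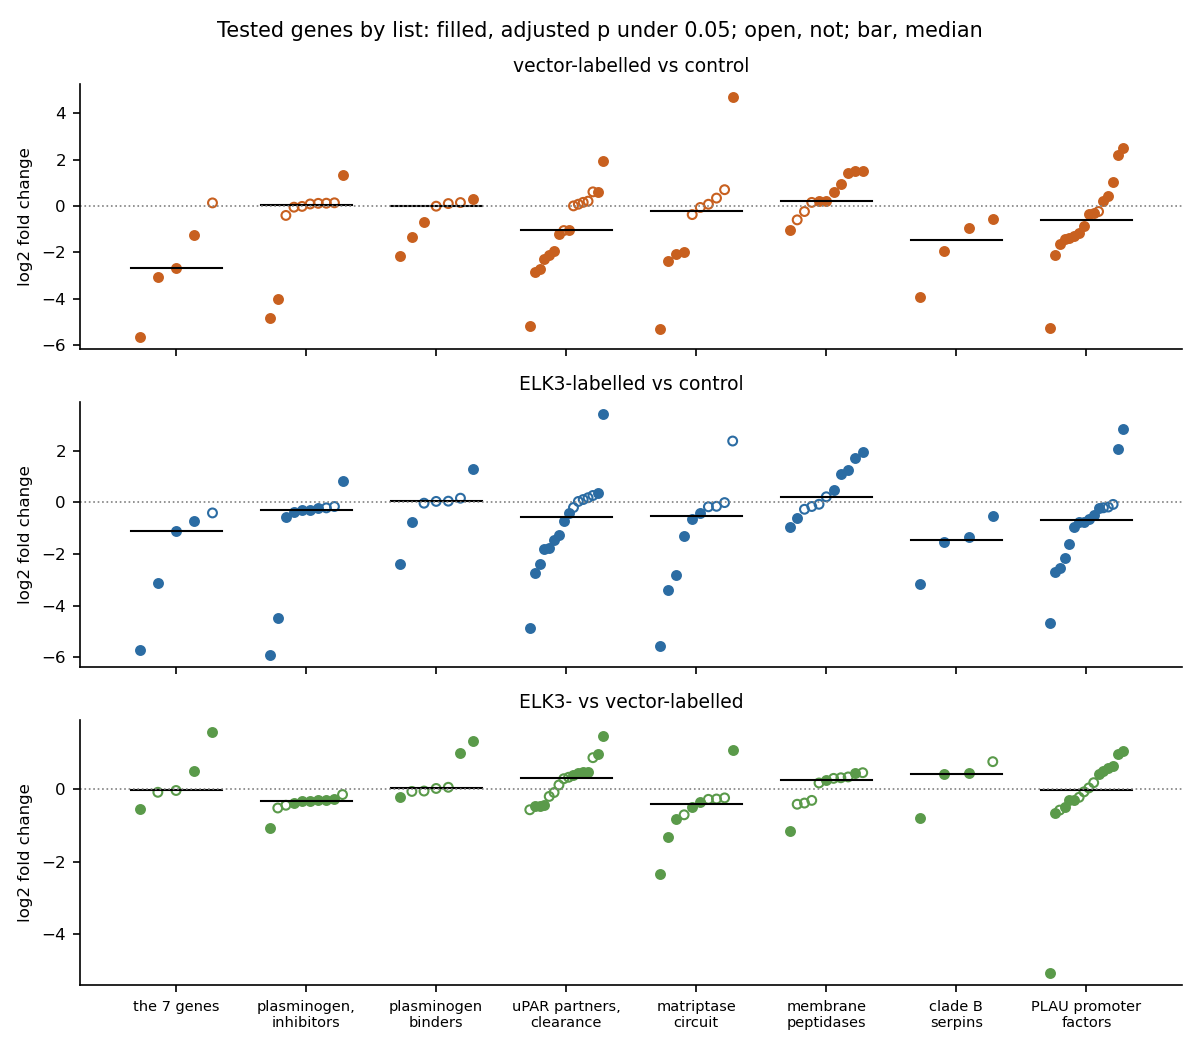
Log2 fold change of each tested gene in the members and the 7 lists, 1 panel per contrast. Filled points passed the edgeR test (adjusted p under 0.05), open points did not, and bars are list medians. The 4 tested clade B serpins lie below 0 in both contrasts with the controls, and the highest point of the matriptase list is PRSS8, whose fitted change rests on 1 count in the controls.

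The list of receptor partners and clearance receptors had 16 tested genes of 18. In vector-labelled libraries against controls 2 rose and 8 fell, beside shares of 37.0% and 35.3% over all genes. The list's median was -1.05. The integrin chains ITGA3 and ITGB1, which pair as a laminin receptor and are known to bind the urokinase receptor, went from 215 to 5.83 CPM (-5.18 ± 0.16, edgeR adjusted p = 2.41e-23) and from 538 to 141 CPM (-1.93 ± 0.09). EGFR, a growth factor receptor that the urokinase receptor can activate, went from 161 to 22.6 CPM (-2.84 ± 0.11). Between the plasmid groups 6 rose and 3 fell. LRP2, or megalin, which takes up serpin and protease complexes, rose from 5.47 to 15.1 CPM (1.46 ± 0.24), and ITGB1 rose by 0.47 ± 0.09. VTN, vitronectin, a liver-made ligand of the urokinase receptor, fell by 0.48 ± 0.10. Against controls 2 rose and 9 fell in ELK3-labelled libraries, with a median of -0.56. With library totals the number that rose became 5 in the vector-labelled and 4 in the ELK3-labelled libraries against controls, and in the latter it was 1 with DESeq2, without control replicate 2 or without ELK3-labelled replicate 1. EGFR also belongs to the MDA-MB-231 list.

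Around matriptase, 10 of 13 genes were tested, and 1 rose and 4 fell in vector-labelled libraries against controls. Over all genes 37.0% were called higher and 35.3% lower in that contrast. CDCP1, a surface protein cut by matriptase and plasmin, went from 330 to 8.42 CPM (-5.29 ± 0.12, edgeR adjusted p = 2.97e-27) and to 6.87 CPM in the ELK3-labelled libraries. SPINT2, an inhibitor of matriptase, went from 16.8 to 4.15 CPM (-1.99 ± 0.27). EPCAM, an epithelial adhesion molecule, went from 12.8 to 3.12 CPM (-2.06 ± 0.31). F2RL1, a protease-activated receptor, went from 30.9 to 5.99 CPM (-2.36 ± 0.28). PRSS8, the protease prostasin that acts with matriptase, went from 1 count over both controls to 39 over both vector-labelled libraries, a ratio of 31.2 with a 95% counting interval of 5.27 to 1260. With a filter of 10 CPM in 2 libraries PRSS8 was not tested and none of the list rose. Between the plasmid groups 1 rose (F2RL1, to 13.3 CPM, 1.08 ± 0.31) and 5 fell. The 5 became 2 with DESeq2, without vector-labelled replicate 1 or without ELK3-labelled replicate 2, and 3 with the replicate block, with library totals, without the filter, without vector-labelled replicate 2 or without ELK3-labelled replicate 1. The rise of F2RL1 was no longer called when replicate 1 of either plasmid group was left out (adjusted p = 0.0631 for the vector-labelled and 0.160 for the ELK3-labelled library). Against controls 0 rose and 6 fell in ELK3-labelled libraries.

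Of 14 aminopeptidases and other membrane peptidases like ANPEP, 11 were tested, and 7 rose and 1 fell in vector-labelled libraries against controls, with a median of 0.24, where 37.0% of all genes were called higher. ENPEP, aminopeptidase A, rose from 4.13 to 11.8 CPM (1.52 ± 0.27, edgeR adjusted p = 8.30e-06), and MME, neprilysin, from 3.39 to 9.97 CPM (1.52 ± 0.31). ERAP1, which trims antigenic peptides, fell from 57.4 to 27.8 CPM (-1.03 ± 0.13), while its relative ERAP2 rose from 10.5 to 20.4 CPM (0.94 ± 0.20). The 7 that rose became 3 with DESeq2, without the filter or without vector-labelled replicate 2, and 4 without control replicate 2. The 1 that fell became 2 without the filter or without control replicate 2. Between the plasmid groups 2 rose and 1 fell, the latter ECE1, which cleaves big endothelin, from 241 to 107 CPM (-1.17 ± 0.09). Leaving out replicate 1 of either plasmid group left 1 that rose, and a filter of 10 CPM gave 2 that fell. Against controls 5 rose and 2 fell in ELK3-labelled libraries.

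Only 4 of 12 further clade B serpins, the mostly intracellular family of SERPINB2, were tested, and all 4 fell in both contrasts with the controls. Of all genes 35.3% were called lower in the vector-labelled and 30.8% in the ELK3-labelled libraries. SERPINB1, an inhibitor of neutrophil proteases, went from 59.5 to 15.4 CPM (-1.95 ± 0.15, edgeR adjusted p = 6.94e-14). SERPINB8 went from 9.22 to 0.647 CPM, 87 against 7 counts. SERPINB9, the inhibitor of granzyme B that shields cells from natural killer cells, went from 26.6 to 17.9 CPM (-0.56 ± 0.17) and fell again to 10.3 CPM in the ELK3-labelled libraries (-0.79 ± 0.18, adjusted p = 0.000317). SERPINB1 and SERPINB6 rose between the plasmid groups, by 0.42 ± 0.16 and 0.43 ± 0.16, and neither was called with DESeq2, without vector-labelled replicate 1 or without ELK3-labelled replicate 2.

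Of 16 transcription factors known to act on urokinase regulatory DNA, or related to ELK3, 5 rose and 10 fell in vector-labelled libraries against controls. ELK3 was among the 5, as were the AP-1 subunits FOSB (log2 fold change 2.20), FOS (1.03) and JUN (0.44). The shares over all genes were 37.0% higher and 35.3% lower. FOSL1, an AP-1 subunit, went from 191 to 4.90 CPM (-5.27 ± 0.15, edgeR adjusted p = 1.80e-25) and was 7.25 CPM in the ELK3-labelled libraries. ETS1 went from 147 to 47.0 CPM (-1.65 ± 0.10) and to 33.0 CPM. RELA, a subunit of NF-kappaB, went from 142 to 52.5 CPM (-1.43 ± 0.10) and then rose to 102 CPM (0.95 ± 0.10). Between the plasmid groups 6 of the list rose and 5 fell, with FOS higher (1.04 ± 0.16) and JUN lower (-0.66 ± 0.08). The 5 became 3 without vector-labelled replicate 1 or without ELK3-labelled replicate 1. Against controls 2 rose and 11 fell in ELK3-labelled libraries, and FOSB, another AP-1 subunit, rose from 4.46 to 32.0 CPM (2.83 ± 0.22). FOSL1 also belongs to the MDA-MB-231 list.

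Patterns across the 6 libraries were compared by the root mean square difference of centred log2 CPM, over 11538 genes with at least 10 CPM in 1 group. The members were unlike each other by this measure. The closest pair was PLAT and SERPINE2 at 0.583, and PLAU and PLAUR were 1.23 apart, since PLAU fell further. Nearest to PLAU was AXL, a receptor tyrosine kinase, at 0.107, with mean CPM of 606, 13.4 and 11 in controls, vector-labelled and ELK3-labelled libraries. The chemokine CXCL8 (0.126), CDCP1 (0.213), the transporter SLC43A3 (0.229) and the keratin KRT7 (0.234) followed.

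Nearest to PLAUR was the lectin LGALS1 at 0.067, with mean CPM of 641, 83.5 and 75.3, followed by BCAR3, QSOX1, GBP1 and TINAGL1. AXL, CXCL8, KRT7 and LGALS1 all belong to the MDA-MB-231 list. For PLAU, 3 to 5 of its 5 nearest genes were named again when 1 library was left out, and for PLAUR 3 to 4. PLAT was nearest to TRAPPC4 (0.106), SDF2, MED14, ABI2 and NAA20, and SERPINE2 to ANP32A (0.032), ADGRA3, SCRN1, SPIRE1 and ABHD16A. With 1 library left out, 1 to 3 of the 5 were named again for each of these. ANPEP was nearest to HAO2, an oxidase of liver and kidney, at 0.014, with mean CPM of 9.43, 10.3 and 7.24. DENND1A, SGPL1, PIAS4 and CYC1 came next, and 0 to 3 of ANPEP's 5 were named again.

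**Figure D4:**
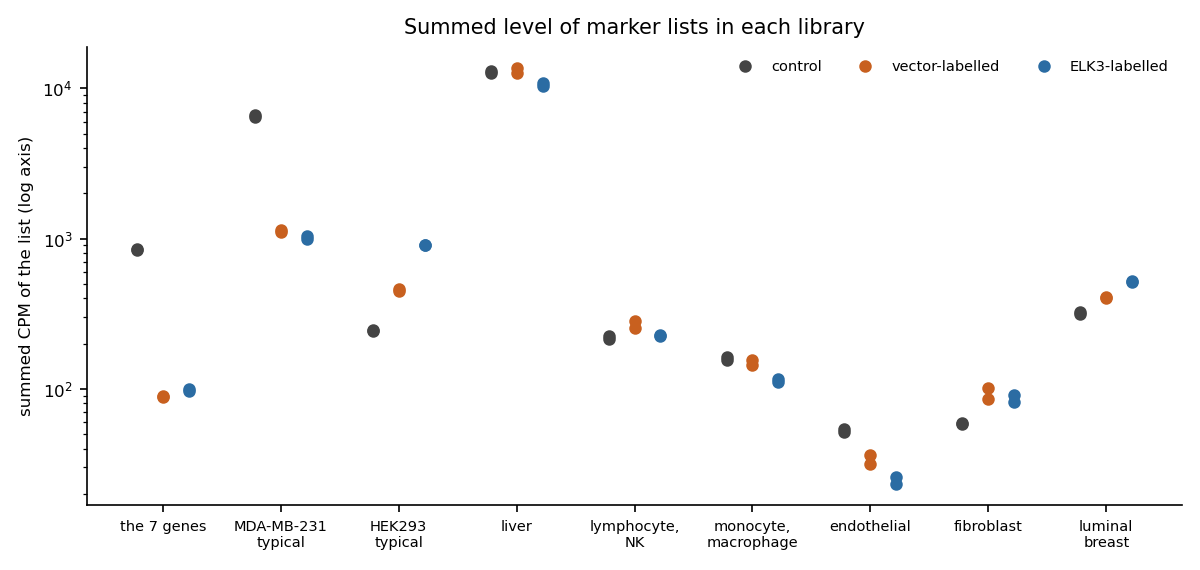
Summed TMM-scaled CPM (log axis) of 8 marker lists and the members in each of the 6 libraries, by group as labelled. The members sum to 841 to 847 CPM in controls and 88.9 to 99.5 CPM elsewhere, the MDA-MB-231 list falls likewise, and the HEK293 list is highest in the ELK3-labelled libraries.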

How the data were processed

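RNA was sequenced in 6 libraries (3 groups of 2) with a kit that reads transcript 3′ ends, per the labels' protocols. The authors deposited raw counts per gene symbol. Bowtie2, edgeR and hg19 are named without versions, per the submitters' processing notes, and the counter and annotation are not given in the sources used here. Of 25737 lines, 1561 lines of 286 symbols shared a symbol and were summed, no member among them.

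The test was edgeR 4.0.16 in R 4.3.3. Genes passed filterByExpr (about 10 counts, 1.81 CPM, in 2 libraries and 15 in total), TMM set the scaling, and 1 robust quasi-likelihood fit covered all 6 libraries with a mean per group, leaving 3 residual degrees of freedom. Its common biological coefficient of variation came to 0.0645. Two-sided p-values were adjusted over 15386 genes (Benjamini-Hochberg), with a threshold of 0.05. CPM are TMM-scaled, and log2 CPM used a prior count of 2. Totals ran from 4884483 to 9131214 counts, and replicates differed by more than sampling noise (chi-square per degree of freedom 2.31 to 3.21). The test was tried on simulated data. Intervals on ratios of counts cover counting error only, at 95%. Floors of 3 counts cover only that of the group at 0.

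Members and lists were chosen with earlier results of these data known. Named were the 7 members, genes overlapping them, ELK3, CDKN2A, marker genes at 0 in a group, up to 4 genes with the smallest p per list and contrast, and the 5 genes nearest in pattern per tested member, LOC names left out. Some listed genes that this rule names are not reported here, though counts and medians of the lists include them. Deviations of same-numbered replicates correlated at -0.0556 to 0.0332, so no strong effect shared by number was seen. This cannot show whether same-numbered samples were handled together. Alternatives were a replicate block, DESeq2 1.42.0, its size factors alone, library totals, limma-voom (limma 3.58.1), no filter, a minimum of 10 CPM in 2 libraries, a fit to the 4 libraries of a contrast, and leaving out each library, where the lone one is assumed to vary like the rest. Files were read in Python 3.11.15 (pandas 2.3.3, numpy 2.4.6) and plots drawn in matplotlib 3.10.9. Gene loci are from GENCODE 29 on GRCh38 and promoters from RefSeq (GRCh38.p14). The files give no coordinates.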

Additional observations from a re-analysis of the deposited data

How the results depend on the processing

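PLAU, PLAUR, PLAT and SERPINE2 kept direction and call in both contrasts with the controls under every alternative run, as did PLAT between ELK3-labelled and vector-labelled libraries. Of 210 member values under alternatives, 201 kept direction and side of the threshold, 5 lost the call, 1 gained it and 3 turned sign. Members called ranged from 1 to 3 between ELK3-labelled and vector-labelled libraries with 1 library left out, and were 2 with DESeq2. They ranged from 4 to 5 in each contrast with the controls. With the replicate block 4, 3 and 4 members were called, as without it, and 11057, 9051 and 9531 genes in all, so the block changed no member count. ANPEP against controls in the ELK3-labelled libraries was -0.51 without control replicate 2, on the threshold of 0.05. Library totals moved the median of all genes to 0.18 in both contrasts with the controls and to 0.006 between plasmid groups.

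The values that turned sign were uncalled. For vector-labelled against control, library totals gave HPN 0.075, PLG 0.12 and SERPINF2 0.087, the 10 CPM filter gave 0.042, 0.088 and 0.054, and PLG was 0.0028 with only the 4 libraries. Between ELK3-labelled and vector-labelled libraries PLAU was 0.019 without the filter and ENO1 -0.052 with the 10 CPM filter. For ELK3-labelled against control, PLGRKT was 0.13 with library totals. With 1 library left out, the ranges that crossed 0 were, for vector-labelled against control, -0.19 to 0.022 for HPN, -0.13 to 0.072 for PLG and -0.022 to 0.15 for VTN. Between ELK3-labelled and vector-labelled libraries they were -0.22 to 0.14 for PLAU, -0.0042 to 0.048 for ENO1, -0.040 to 0.55 for ITGA3, -0.38 to 0.21 for PZP and -0.14 to 0.027 for S100A10. For ELK3-labelled against control the range was -0.15 to 0.12 for PLGRKT. The cause was not tested. Depth limits SERPINB2 and ST14, which had at most 13 counts in any library.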
